A study of Mus musculus with 4 samples.

Results

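Genes that T cells use to receive or deliver costimulation, and 3 genes tied to regulatory T cells, were followed across 4 single-cell RNA libraries of mouse pancreatic ductal adenocarcinoma. The 9 genes are Tnfrsf4, Tnfrsf9, Tnfrsf18, Icos, Cd40lg, Cd28, Il2ra, Foxp3 and Ikzf2, and each matched 1 of the 32285 features by its symbol. Each library was made by 10x Genomics droplet capture after enzymatic digestion of tumour pooled from 3 animals, so each group is 1 library. Control animals received PBS. The group called PH here received hydroxychloroquine together with paricalcitol. Group G received gemcitabine, and group GPH received gemcitabine on top of both other drugs. The GPH treatment label breaks off after gemcitabine at 60 mg/kg, given intraperitoneally, so that group was read from the sample title. The labels name the tissue as PDAC in every group and give no strain, age, tumour model, schedule, or dose for PH and G. The series asked whether the PH pair sensitises the tumour to gemcitabine. With 1 library per group no difference could be tested against animal-to-animal spread, and none of the values below carries a p-value.

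A T cell that meets its antigen also reads a second, costimulatory signal. Cd28 is the receptor for that signal on resting T cells, Icos is its relative on activated cells, and Cd40lg is the ligand by which helper T cells activate cells that carry Cd40. Tnfrsf4 (OX40), Tnfrsf9 (4-1BB) and Tnfrsf18 (GITR) are receptors of the tumour necrosis factor family that appear on activated T cells and on regulatory T cells, and signal through TRAF adaptors to NF-kappaB. Il2ra (CD25) is the high-affinity chain of the interleukin 2 receptor, Foxp3 is the transcription factor that defines regulatory T cells, and Ikzf2 (Helios) is a transcription factor found in many of them. In tumours, regulatory T cells are known for high levels of the TNF-family receptors.

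Tnfrsf4, Tnfrsf9 and Tnfrsf18 all lie on chromosome 4. Tnfrsf4 (chr4:156013843-156016612, plus strand, GENCODE vM21 on mm10) and Tnfrsf18 (chr4:156026164-156028895, plus strand) are separated by 9551 bases, and Tnfrsf9 lies at chr4:150914562-150946102 (plus strand). Icos (chr1:60977927-61000320) and Cd28 (chr1:60716800-60773359) are both on the plus strand of chromosome 1, with 204567 bases between them. Ikzf2 (chr1:69531214-69687245) lies on the minus strand of the same chromosome. Il2ra (chr2:11642807-11693193), Foxp3 (chrX:7573644-7595245) and Cd40lg (chrX:57212143-57224042) are on the plus strand.

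The RefSeq table of promoter windows (GRCm38.p6, 250 bases before to 50 after a transcript start) held windows for 5 of the 9 genes. The windows of the 3 TNF-family receptors and of Il2ra are shown because these 4 genes were the ones higher in CD8 T cells of G than of control together with Ikzf2. Capitals mark matches on either strand to 5 motifs searched: TGANTCA (AP-1), GGAAA (NFAT core), TGTGGT (Runx core), TTCNNNGAA (STAT) and GTAAACA (forkhead). Matches can overlap. For Tnfrsf9, which has 2 listed starts, both windows are given.

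Tnfrsf4 (chr4:156013445-156013744, plus): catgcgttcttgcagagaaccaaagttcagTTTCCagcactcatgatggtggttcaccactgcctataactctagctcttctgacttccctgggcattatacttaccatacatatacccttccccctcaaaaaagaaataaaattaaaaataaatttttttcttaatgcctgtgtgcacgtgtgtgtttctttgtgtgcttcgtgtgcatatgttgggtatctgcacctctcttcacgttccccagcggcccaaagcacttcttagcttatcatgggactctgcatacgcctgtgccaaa
Tnfrsf18 (chr4:156026072-156026371, plus): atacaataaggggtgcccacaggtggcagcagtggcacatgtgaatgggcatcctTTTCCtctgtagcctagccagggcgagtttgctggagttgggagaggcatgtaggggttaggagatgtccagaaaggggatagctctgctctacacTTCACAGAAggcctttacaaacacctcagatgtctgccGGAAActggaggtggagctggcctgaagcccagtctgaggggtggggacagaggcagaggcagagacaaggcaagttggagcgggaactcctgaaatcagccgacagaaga
Tnfrsf9 first window (chr4:150919905-150920204, plus): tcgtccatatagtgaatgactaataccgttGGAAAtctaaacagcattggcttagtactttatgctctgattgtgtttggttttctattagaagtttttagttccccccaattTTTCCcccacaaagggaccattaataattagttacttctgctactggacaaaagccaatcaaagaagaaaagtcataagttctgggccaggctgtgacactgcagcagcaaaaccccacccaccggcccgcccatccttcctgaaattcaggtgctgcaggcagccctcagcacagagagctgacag
Tnfrsf9 second window (chr4:150927749-150928048, plus): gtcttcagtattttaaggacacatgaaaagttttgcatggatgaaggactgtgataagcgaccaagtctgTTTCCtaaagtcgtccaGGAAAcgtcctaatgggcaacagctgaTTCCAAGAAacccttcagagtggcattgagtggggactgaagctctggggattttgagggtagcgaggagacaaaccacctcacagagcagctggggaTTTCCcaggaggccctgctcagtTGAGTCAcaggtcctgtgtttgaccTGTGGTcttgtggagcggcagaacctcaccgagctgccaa
Il2ra (chr2:11642542-11642841, plus): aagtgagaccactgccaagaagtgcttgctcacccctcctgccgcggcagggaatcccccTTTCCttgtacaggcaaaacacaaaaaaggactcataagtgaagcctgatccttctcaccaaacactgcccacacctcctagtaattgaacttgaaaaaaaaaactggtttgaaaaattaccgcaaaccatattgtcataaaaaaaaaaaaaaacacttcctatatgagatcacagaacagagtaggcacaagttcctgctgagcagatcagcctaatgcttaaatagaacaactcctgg

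GGAAA was in each of these 5 windows, and it was in 61.3% of all 32851 windows of that length. The second Tnfrsf9 window held a TGANTCA match 15 bases before the start, which 7.81% of all windows have somewhere. The same window held TGTGGT, present in 16.8% of all windows. TTCNNNGAA matched once in the second Tnfrsf9 window and once in the Tnfrsf18 window, against 8.3% of all windows. GTAAACA matched in none of the 5 and in 3.65% of all windows. These matches describe the letters of the windows only.

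T cells were gated on the transcripts themselves. Levels are given as CPM, the UMIs (unique molecular identifiers, which count captured transcripts) of a gene per 1000000 UMIs of the population in that library. A T cell held at least 2 UMIs of Cd3d, Cd3e and Cd3g together, at 3 or more per 10000 of its UMIs. Foxp3-positive cells had a Foxp3 UMI and no Cd8a UMI. Foxp3-negative CD4 cells had a Cd4 UMI and neither Cd8a nor Foxp3. CD8 cells had a Cd8a UMI and neither Cd4 nor Foxp3. Foxp3 was used by all 3 gates, so its level in them is a description and is never counted among the differences.

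Control held 539 gated T cells, PH 592, G 4006 and GPH 153. Foxp3-negative CD4 cells numbered 60, 34, 710 and 15, always listed in the order control, PH, G, GPH. CD8 cells numbered 205, 215, 943 and 29, and Foxp3-positive cells 8, 9, 319 and 0. Between 49.4% and 71.2% of the gated T cells of a library fell into none of the 3 populations, nearly all because they showed neither co-receptor. The 3 populations of G thus rest on many more cells than those of the other libraries. In GPH none of the 3 reached 50 cells, so its levels are set beside the others as a description only. The 109 GPH cells outside the 3 populations held Cd3e at 796 CPM, but Cd3d at 17.7, Cd3g at 37.4 and Trac at 11.2. Their 4 keratin-high tumour markers summed to 5587 CPM, and 68.8% held 3 or more UMIs of other lineages. How many of them are T cells was not tested.

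The libraries held between 143298547 and 190110092 UMIs over 7918 to 18589 barcodes, and 4411 to 13977 cells were kept. The median kept cell had 9635, 7862, 4610 and 20103 UMIs in the 4 libraries. CD8 cells had medians of 2589, 2805, 4978 and 3869 UMIs, below the kept cells in each library but G. Between 17 and 79 barcode sequences were shared by any 2 libraries. In the Foxp3-negative CD4 cells 13 T cell markers, the gate's own among them, summed to 5176 to 6798 CPM. Cd8b1, which the gate did not use, was at 41.2, 0, 6.21 and 0 CPM in them. In the CD8 cells of control, PH and G, Cd8b1 was at 529, 387 and 357 CPM. Nmt1, a transcript that split the libraries in T cells and other cells alike, was at 140, 62.5, 37.3 and 164 CPM in Foxp3-negative CD4 cells and at 114, 25.6 and 27.4 in control, PH and G cells with neither Cd3 nor Ptprc UMIs. Control was above PH and G in both. The transcripts of the 9 genes themselves came at most to 9.40 CPM in cells with neither Cd3 nor Ptprc UMIs, and that value was Ikzf2 in GPH.

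**Figure D1:**
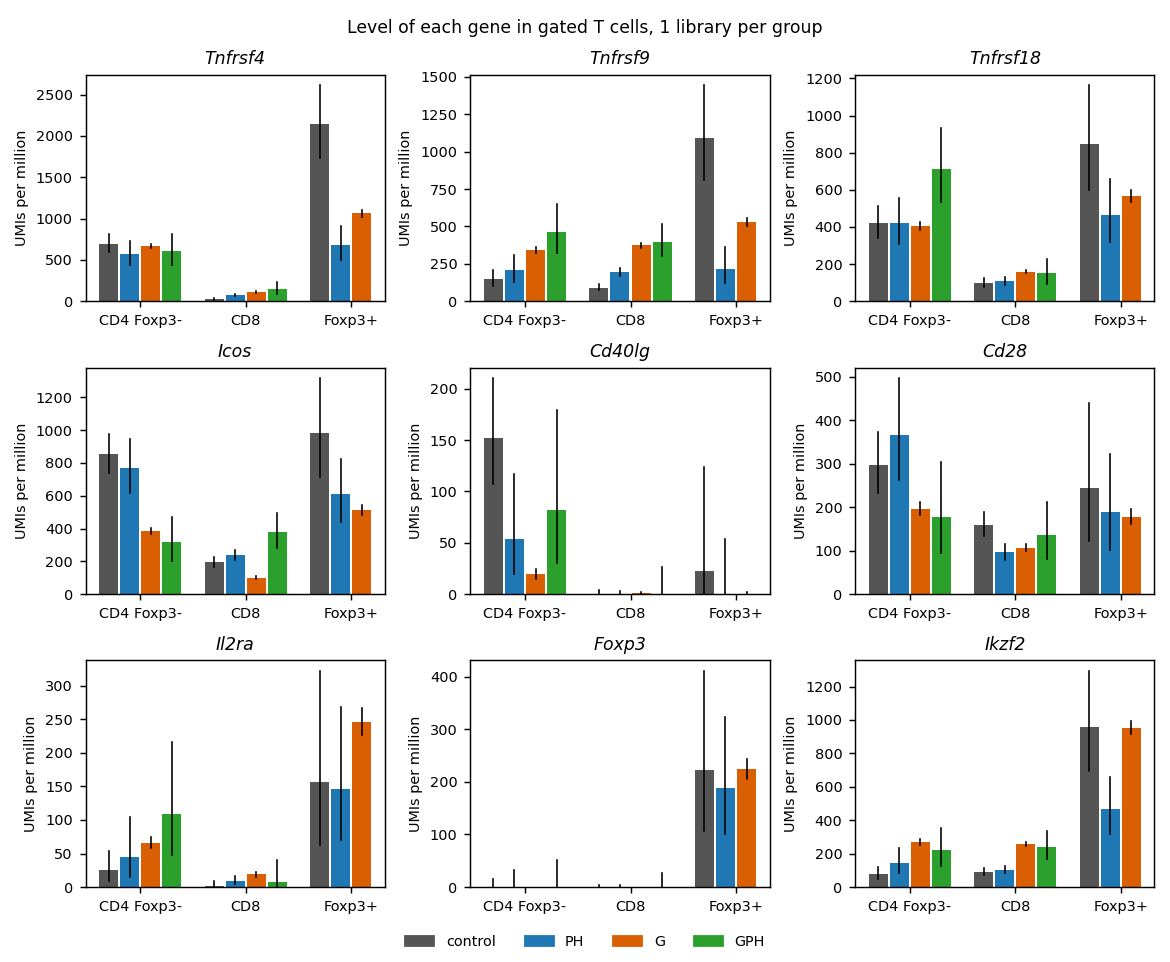
Level of each of the 9 genes in CPM (vertical axis, linear from 0), in Foxp3-negative CD4, CD8 and Foxp3-positive T cells (horizontal axis); bars are the 4 libraries and black lines are 95% exact Poisson intervals, which cover counting error only. Cd40lg stands at 152 in control Foxp3-negative CD4 cells and at 0 to 0.62 in CD8 cells, and Ikzf2 stands at 959 and 955 in Foxp3-positive cells of control and G; GPH has no Foxp3-positive cell.

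Foxp3-positive cells made up 11.8% of CD4-lineage T cells in control (8 of 68, exact Clopper-Pearson 95% interval 5.22% to 21.9%). They made up 20.9% in PH (9 of 43, 10.04% to 36.0%) and 31.0% in G (319 of 1029, 28.2% to 33.9%). No Foxp3-positive cell was found among 15 CD4-lineage cells of GPH, where the same kind of interval runs from 0% to 21.8%. Under these gates the interval of G lay above that of control and overlapped that of PH. Foxp3 is a low transcript, and a cell with few UMIs is less likely to show it: Foxp3-positive cells had median depths of 3470, 4740 and 5379 UMIs in control, PH and G. With each cell drawn down to 1500 UMIs the shares were 9.30%, 21.4% and 26.3%. At 2 or more Foxp3 UMIs, the shares of control and G were 3.23% and 14.1%, and that of control rests on 2 cells. The share itself thus depended on the gate. Of the Foxp3-positive cells, 5 of 8, 3 of 9 and 121 of 319 also showed a Cd4 UMI. The 2 sides of the share were gated unlike each other, since a Cd4 UMI was asked of the Foxp3-negative cells only. The 262, 332 and 2009 T cells of control, PH and G with neither co-receptor nor Foxp3 were left out. With Cd4 asked of both sides, 5, 3 and 121 Foxp3-positive cells would stand against 60, 34 and 710 Foxp3-negative cells. Each share would then be lower, and these shares and their intervals were not computed. Whether the G interval would still lie above that of control was not tested.

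In control each of the 3 TNF-family receptors was lower in CD8 cells than in either CD4-lineage population. For Tnfrsf9 the intervals of CD8 and Foxp3-negative CD4 cells overlapped. Tnfrsf4 stood at 696, 571, 668 and 603 CPM in Foxp3-negative CD4 cells of the 4 libraries, with overlapping intervals. In CD8 cells it stood at 23.2, 72.7, 112 and 149, and control was the lowest of the 4. Foxp3-positive cells of control, PH and G had 2140, 684 and 1066. These are the highest levels of Tnfrsf4 among the 3 populations in each library, although in PH the Foxp3-positive and Foxp3-negative intervals overlapped.

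Tnfrsf9 stood at 148, 205, 342 and 466 CPM in Foxp3-negative CD4 cells. The intervals of G (323 to 361) and GPH (323 to 651, from 15 cells) lay above those of control (104 to 205) and PH (130 to 308). CD8 cells had 90.5, 195, 373 and 398, in the same order of libraries, with G and GPH overlapping each other and lying above PH, which lay above control. In Foxp3-positive cells the order was another one, with 1092 in control, 218 in PH and 529 in G.

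Tnfrsf18 stood at 420, 420, 403 and 712 CPM in Foxp3-negative CD4 cells, where the GPH interval (532 to 934, from 15 cells) lay above control and G and overlapped PH. In CD8 cells it stood at 98.7, 107, 159 and 149. In Foxp3-positive cells it stood at 847, 466 and 567. Its levels in Foxp3-negative CD4 cells of control, PH and G were thus alike within counting error.

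Icos stood at 853, 768, 385 and 315 CPM in Foxp3-negative CD4 cells, so that control and PH were high and G and GPH low, with no overlap between the pairs. In CD8 cells the pattern differed: 196, 239, 101 and 377, with G lowest and GPH, from 29 cells, highest. In Foxp3-positive cells it stood at 981, 611 and 512. Cd28 stood at 297, 366, 197 and 178 in Foxp3-negative CD4 cells, at 160, 96.1, 107 and 135 in CD8 cells, and at 245, 189 and 179 in Foxp3-positive cells. The GPH interval of Cd28 overlapped every other in both populations.

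Cd40lg stood highest in Foxp3-negative CD4 cells of each library. Control cells held it at 152 CPM (37 UMIs, 20 of 60 cells positive) and PH cells at 53.6 (6 UMIs, 6 of 34 cells). G cells held it at 19.2 (71 UMIs, 62 of 710 cells) and GPH cells at 82.2 (6 UMIs, 4 of 15 cells). The G interval lay below those of control and GPH and overlapped that of PH. CD8 cells held 0, 0, 4 and 0 UMIs. Foxp3-positive cells held 1, 0 and 1 UMI. The gated T cells outside the 3 populations held 34, 7, 65 and 2 UMIs, or 33.2, 4.77, 7.44 and 1.31 CPM, so there too control was the highest. Cells with neither Cd3 nor Ptprc held 0, 0, 1 and 1 UMI in all.

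Il2ra stood at 24.7, 44.6, 66.2 and 110 CPM in Foxp3-negative CD4 cells, of which G rests on 245 UMIs and the others on 5 to 8. In CD8 cells it stood at 2.32, 8.98, 19.0 and 7.11, and in Foxp3-positive cells at 156, 145 and 246. Ikzf2 stood at 78.3, 143, 270 and 219 in Foxp3-negative CD4 cells and at 89.4, 105, 256 and 242 in CD8 cells. In both of these populations G lay above control. In Foxp3-positive cells Ikzf2 stood at 959, 466 and 955, and Foxp3 at 223, 189 and 224.

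**Figure D2:**
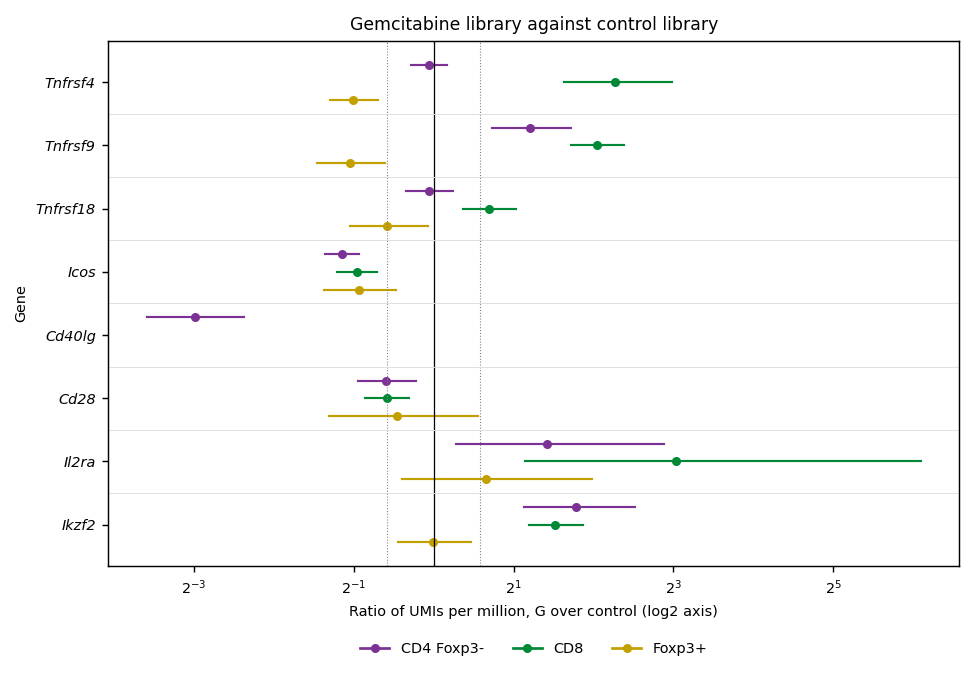
Ratio of CPM, G library over control library (horizontal axis, log2 scale), for the 8 genes that the gates did not use; points are ratios and lines are exact conditional 95% intervals (counting error only), drawn where both libraries together held at least 20 UMIs, and dotted lines mark 1.5-fold either way. Tnfrsf4 (4.81), Tnfrsf9 (4.12) and Il2ra (8.18, with 2 control UMIs in 1 cell) lie far to the right in CD8 cells. Cd40lg (0.126) lies far to the left in Foxp3-negative CD4 cells.

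For the comparisons a gene was counted as higher or lower when its level differed by at least 1.5-fold with an interval that excluded 1, among genes with at least 20 UMIs over both sides. The intervals treat UMIs as independent, although UMIs of 1 cell and cells of 1 pooled suspension are not, so they are narrower than a spread over animals would be. The share of all genes that met the same rule is given beside the count of the members in each comparison. A gene could reach 20 UMIs through the side where it was higher alone, and was still counted. This held for members and all genes alike. The comparisons of PH and of G use the same control library, so they are not independent of each other.

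In Foxp3-negative CD4 cells of G against control, 3 of the 8 genes were higher and 3 lower, against 3.98% and 7.54% of the 8699 genes measured. The higher genes were Tnfrsf9 (2.30-fold, 95% interval 1.66 to 3.31), Il2ra (2.68-fold, 1.21 to 7.37) and Ikzf2 (3.44-fold, 2.19 to 5.75). The lower genes were Cd40lg (7.95-fold lower, 5.19 to 11.99), Icos (2.22-fold lower, 1.91 to 2.57) and Cd28 (1.51-fold lower, 1.17 to 1.92), whose call held in 7 of 13 processing alternatives. Tnfrsf4 (ratio 0.96, 0.821 to 1.13) and Tnfrsf18 (0.959, 0.784 to 1.18) stayed within 1.5-fold either way over their whole intervals. The call of Il2ra ended without cycling cells, at a ratio of 1.98. The median log2 ratio of the 8 genes was -0.06, beside -0.02 over all genes measured.

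Beside these ratios, other transcripts of the same cells also differed between G and control. The 8 macrophage markers summed to 12.4 CPM in control and 3269 in G, with C1qa, C1qb, C1qc, Adgre1 and Apoe at 0 in control and none of the 8 at 0 in G. All 10 genes of a list of dissociation and immediate early genes were lower in G, among them Fos (8.69-fold lower) and Jun (5.54-fold lower). The 5 markers of vimentin-high tumour or stroma cells summed to 2641 in control and 407 in G, with none at 0 in either. The 4 keratin-high tumour markers summed to 57.7 and 357. Of 11 measured T cell markers 3 were lower in G and none higher, with a median log2 ratio of -0.36. Nmt1 was at 140 in control and 37.3 in G. The part of cell mixture, handling or library in the ratios of the 8 genes was not tested. The calls of Cd40lg, Icos, Tnfrsf9 and Ikzf2 were kept under each of the 13 processing alternatives, 1 of which leaves out cells holding 3 or more UMIs of other lineages.

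In CD8 cells of G against control, 5 of 7 measured genes were higher and 2 lower, against 7.87% and 12.5% of 9777 genes. Tnfrsf4 was 4.81-fold higher (3.09 to 7.93) and Tnfrsf9 4.12-fold higher (3.29 to 5.23). Il2ra was 8.18-fold higher (2.22 to 68.3), from 122 UMIs in G and 2 in control. Ikzf2 was 2.86-fold higher (2.28 to 3.65) and Tnfrsf18 1.61-fold higher (1.29 to 2.04). Icos was 1.95-fold lower (1.63 to 2.31) and Cd28 1.50-fold lower (1.24 to 1.81). The median log2 ratio of the 7 measured genes was 1.52, beside -0.01 over all genes. Cd28 turned to a ratio of 1.19 when no minimum concentration of Cd3 UMIs was asked of a T cell, and its call held in 7 of 13 alternatives. The call of Icos ended under that setting, at a ratio of 0.892, and with no doublet removal, at 0.716. The call of Tnfrsf18 ended without cells holding other-lineage UMIs, at 1.41. Cells with a UMI of the proliferation genes Mki67 or Top2a made up 22.9% of CD8 cells in control and 36.8% in G. These shares were not taken at matched depth, and the median CD8 cell had 2589 UMIs in control and 4978 in G. In the CD8 cells 8 of 10 dissociation and immediate early genes were lower in G. Macrophage markers summed to 1285 CPM in control and 1220 in G, with 3 of 8 higher in G and 2 lower. Neutrophil markers summed to 3.48 in control and 72.5 in G. Keratin-high markers summed to 265 and 373, with 2 of 4 higher in G. Of 11 measured T cell markers 2 were lower in G and none higher, with a median log2 ratio of -0.49. Vimentin-high markers summed to 2216 in control and 193 in G, and Nmt1 was at 146 and 33.6. The part of these in the ratios was not tested.

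In Foxp3-positive cells of G against control, none of 7 measured genes was higher and 3 were lower, against 1.01% and 5.97% of 7032 genes. Tnfrsf4 was 2.01-fold lower (1.62 to 2.46), Tnfrsf9 2.07-fold lower (1.52 to 2.75) and Icos 1.92-fold lower (1.39 to 2.59). Ikzf2 had a ratio of 0.996 (0.737 to 1.38), Tnfrsf18 of 0.669 (0.485 to 0.95), Cd28 of 0.728 (0.403 to 1.47) and Il2ra of 1.58 (0.76 to 3.94). The median log2 ratio of the 7 genes was -0.58, beside -0.10 over all genes. T cell markers were also lower in these cells, 4 of 12 measured with 1 higher and a median log2 ratio of -0.65. The control side is 8 cells, of which 75.0% showed Mki67 or Top2a against 49.8% of the 319 cells of G. Each of the 8 cells carried Tnfrsf4, at 6 to 20 UMIs with a median of 11, and Tnfrsf9, at 3 to 16 UMIs with a median of 5. At a gate of 2 Foxp3 UMIs, 1 gene was called in place of 3. Keratin-high markers summed to 44.6 in control and 418 in G, with 3 of 4 higher. Vimentin-high markers summed to 44.6 in control and 1022 in G, and macrophage markers to 0 and 399. Nmt1 was at 223 and 47.6, and the part of these was not tested.

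**Figure D3:**
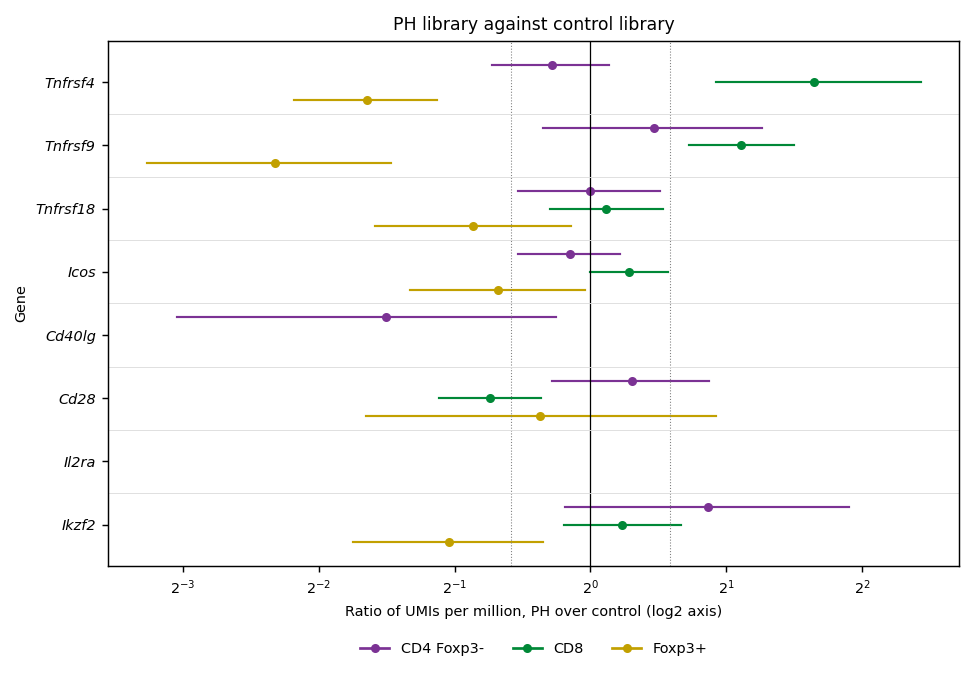
Ratio of CPM, PH library over control library (horizontal axis, log2 scale), in the same layout: points are ratios, lines exact conditional 95% intervals and dotted lines 1.5-fold. Tnfrsf4 and Tnfrsf9 lie to the right of 1 in CD8 cells (3.13 and 2.15) and to the left in Foxp3-positive cells (0.32 and 0.20), the latter from 9 against 8 cells.

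In Foxp3-negative CD4 cells of PH against control, none of 7 measured genes was higher and 1 was lower, against 6.34% and 7.8% of 2333 genes. The gene was Cd40lg, 2.85-fold lower (1.19 to 8.25), from 6 UMIs in PH and 37 in control. Without cycling cells no gene was called, and with no doublet removal 4 were, Tnfrsf4, Tnfrsf18 and Icos being lower as well. Thinned to 1500 UMIs, the call of Cd40lg ended and Tnfrsf9 was higher, at 2.66. The other ratios ran from 0.821 for Tnfrsf4 to 1.83 for Ikzf2, each with an interval that held 1. As a set, the median log2 ratio was -0.00 for the genes and -0.05 over all genes. Macrophage markers summed to 3849 CPM in PH and 12.4 in control, vimentin-high markers to 688 and 2641, and Nmt1 was at 62.5 and 140. Of the 10 dissociation and immediate early genes 6 were lower in PH. The part of these in the lower Cd40lg was not tested.

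In CD8 cells of PH against control, 2 of 6 measured genes were higher and 1 lower, against 8.54% and 6.91% of 6907 genes. Tnfrsf4 was 3.13-fold higher (1.90 to 5.40) and Tnfrsf9 2.15-fold higher (1.65 to 2.82). Cd28 was 1.67-fold lower (1.29 to 2.17), a call kept in 10 of 13 alternatives with ratios up to 0.911. Tnfrsf18 (1.08, 0.813 to 1.45), Ikzf2 (1.18, 0.874 to 1.59) and Icos (1.22, 1.00 to 1.49) were not past the fold. The median log2 ratio was 0.26, beside 0.01 over all genes. With no minimum Cd3 concentration 5 genes were called. The calls of Tnfrsf4 and Tnfrsf9 were kept under each of the 13 alternatives. Macrophage markers in these cells summed to 2132 CPM in PH and 1285 in control, neutrophil markers to 790 and 3.48, and 5 of 10 dissociation and immediate early genes were higher in PH. Of 11 measured T cell markers 3 were lower in PH and none higher, with a median log2 ratio of -0.51. Nmt1 was at 28.7 in PH and 146 in control. Their part was not tested.

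In Foxp3-positive cells of PH against control, none of 6 measured genes was higher and 5 were lower, against 11.8% and 13.7% of 837 genes. Tnfrsf9 was 5.01-fold lower (2.76 to 9.61) and Tnfrsf4 3.13-fold lower (2.19 to 4.54). Tnfrsf4 held 1 to 11 UMIs per cell with a median of 4 in the 9 cells of PH, and Tnfrsf9 0 to 6 with a median of 1, so the cells of the 2 libraries overlapped for both genes. Ikzf2 (2.06-fold), Tnfrsf18 (1.82-fold) and Icos (1.61-fold) were also lower. The 6 measured genes had a median log2 ratio of -0.95, beside -0.05 over all genes. T cell markers were lower in the same cells, 5 of 8 measured and none higher, with a median log2 ratio of -0.91. Cd3d was at 1070 CPM in control and 553 in PH, and Cd2 at 959 and 291. The part of this in the lower receptors was not tested. Of the 9 cells of PH, 2 carried 3 or more UMIs of other lineages, and macrophage markers summed to 4219 CPM in PH and to 0 in control. Without those cells the ratios of Tnfrsf18, Icos and Ikzf2 were 1.06, 1.04 and 1.11, and 2 genes were called in place of 5. Fewer were called in this comparison with cells drawn down to 1500 UMIs (1), without cycling cells (2) and at a gate of 2 Foxp3 UMIs (0).

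The comparison of Foxp3-positive with Foxp3-negative CD4 cells stays within a library. In G, 4 of the 8 genes were higher in Foxp3-positive cells and 1 was lower, against 8.5% and 13% of 9541 genes. Il2ra was 3.72-fold higher (3.19 to 4.33), Ikzf2 3.54-fold (3.28 to 3.82), Tnfrsf4 1.60-fold (1.51 to 1.69) and Tnfrsf9 1.55-fold (1.43 to 1.68). Cd40lg was 44.7-fold lower (7.77 to 1790), from 1 UMI in 319 cells against 71 in 710. Tnfrsf18 (1.41, 1.30 to 1.51) and Icos (1.33, 1.23 to 1.44) were above 1 and under the fold used. Cd28 had a ratio of 0.907 (0.802 to 1.02). As a set, the median log2 ratio of the 8 genes was 0.56, beside -0.03 over all genes. The call of Tnfrsf9 was kept in 12 of 13 alternatives, with ratios down to 1.48. Cycling cells were 49.8% of Foxp3-positive and 28.9% of Foxp3-negative cells of G, and median depths were 5379 and 3745.5 UMIs. Vimentin-high markers summed to 1022 and 407 CPM, and macrophage markers to 399 and 3269. Their part was not tested.

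In control, 4 of 7 measured genes were higher in Foxp3-positive cells and 1 lower, against 11.2% and 8.6% of 1966 genes. Ikzf2 was 12.2-fold higher (6.98 to 22.2), Tnfrsf9 7.36-fold (4.69 to 11.7), Tnfrsf4 3.07-fold (2.37 to 3.97) and Tnfrsf18 2.02-fold (1.35 to 2.95). Cd40lg was 6.84-fold lower (1.15 to 277), from 1 UMI against 37, and the call held in 8 of 11 alternatives, with ratios from 0.0282 to 0.582. Over the measured genes the median log2 ratio was 1.01, beside 0.06 over all genes. Without cycling cells, or at a gate of 2 Foxp3 UMIs, 3 genes were called. Cycling cells were 75.0% of Foxp3-positive and 30.0% of Foxp3-negative cells here, at median depths of 3470 and 2488 UMIs. Vimentin-high markers summed to 44.6 and 2641 CPM, and 7 of 10 dissociation and immediate early genes were lower in Foxp3-positive cells, with a median log2 ratio of -3.56. Their part was not tested.

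In PH, 1 of 6 measured genes was higher in Foxp3-positive cells and 1 lower, against 9.52% and 9.6% of 1240 genes. Ikzf2 was 3.26-fold higher (1.74 to 6.36), and this call was kept under each of the 13 alternatives. Cd28 was 1.94-fold lower (1.02 to 3.94), with the call kept in 7 of 13 alternatives and a ratio of 1.14 with no doublet removal. Tnfrsf4 (0.803 to 1.77), Tnfrsf9 (0.516 to 2.13) and Tnfrsf18 (0.685 to 1.78) had intervals of the ratio that held 1. With no doublet removal, however, Tnfrsf4, Tnfrsf9, Tnfrsf18 and Icos were higher, at ratios from 1.56 to 2.13. Without cells holding other-lineage UMIs Tnfrsf4, Tnfrsf9 and Tnfrsf18 were higher too, at 1.82 to 2.25. Of 10 measured T cell markers 6 were lower in the Foxp3-positive cells and none higher. The median log2 ratio was 0.12, beside 0.06 over all genes. Whether the ratios of the 3 libraries differ from each other was not tested.

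**Figure D4:**
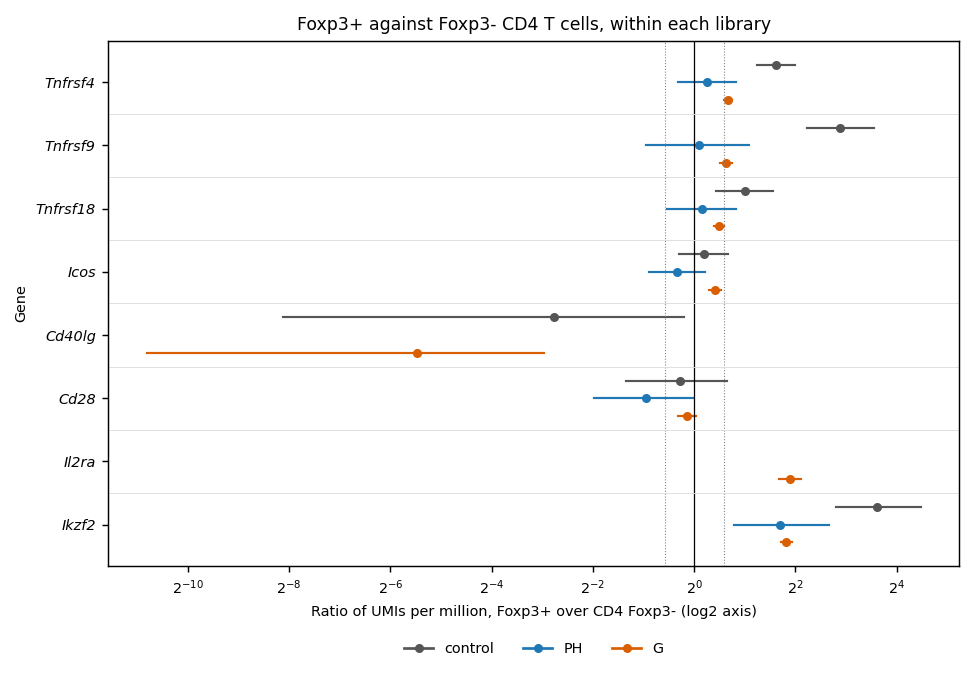
Ratio of CPM, Foxp3-positive over Foxp3-negative CD4 T cells of the same library (horizontal axis, log2 scale); points are ratios, lines exact conditional 95% intervals, colours the libraries control, PH and G, and dotted lines 1.5-fold. Ikzf2 lies to the right of 1 in each of the 3 libraries (12.2, 3.26 and 3.54), and Cd40lg to the left in both libraries where it could be measured (0.146 and 0.0224).

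The Foxp3-negative gate takes in any cell whose Foxp3 was not captured. With cells of G drawn down to 1500 UMIs a Foxp3 UMI was kept in 42.0% of the 314 Foxp3-positive cells deep enough. In the Foxp3-negative CD4 cells of G, drawn down in the same way, Ikzf2 was seen in 25.6% of 692 cells and Il2ra in 9.97%. Of the Il2ra-positive cells 43.5% (31.6% to 56.0%) also held Ikzf2, against 23.6% (20.3% to 27.1%) of the Il2ra-negative cells. Tnfrsf9-positive cells held Ikzf2 in 35.2% (29.3% to 41.6%), against 20.3% (16.7% to 24.3%) of the negative ones. Cd28-positive cells held it in 22.8% (17.3% to 29.2%), against 26.7% (22.9% to 30.9%).

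In cells drawn down to 1500 UMIs some pairs of receptors were seen together more often than others. In CD8 cells of G, Tnfrsf9 was seen in 53.8% (43.8% to 63.7%) of the 104 Tnfrsf4-positive cells and in 37.8% (34.5% to 41.2%) of the others. Tnfrsf18 was seen in 32.2% (27.4% to 37.2%) of the Tnfrsf9-positive CD8 cells and in 18.4% (15.3% to 21.9%) of the negative ones. In Foxp3-positive cells of G, Tnfrsf18 was seen in 67.2% (59.8% to 74.1%) of Tnfrsf9-positive and 52.6% (43.9% to 61.1%) of Tnfrsf9-negative cells. These intervals overlap slightly. Cd28 was seen there in 29.5% (22.8% to 36.9%) of Icos-positive and 16.3% (10.6% to 23.5%) of Icos-negative cells, intervals that overlap slightly. Some other pairs showed no higher share. In CD8 cells Cd28 was seen in 16.6% of Tnfrsf9-positive and 16.1% of Tnfrsf9-negative cells, and in 16.3% of cells with and without Tnfrsf18. In Foxp3-positive cells Il2ra was seen in 26.7% of Tnfrsf18-positive and 26.8% of Tnfrsf18-negative cells, and in 23.7% of Icos-positive and 30.5% of Icos-negative cells.

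Counted over 6 receptors per cell (Tnfrsf4, Tnfrsf9, Tnfrsf18, Icos, Cd28 and Il2ra) at 1500 UMIs, Foxp3-positive cells of G carried 3.01 ± 1.31 (SD over 314 cells). Foxp3-negative CD4 cells carried 2.58 ± 1.12 in control (57 cells) and 2.14 ± 1.22 in G (692 cells). CD8 cells carried 0.80 ± 0.855 in control, 0.985 ± 0.901 in PH and 1.07 ± 1.00 in G. At least 4 of the 6 were seen in 37.6% of Foxp3-positive and 14.7% of Foxp3-negative CD4 cells of G, and in 1.62% of its CD8 cells.

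**Figure D5:**
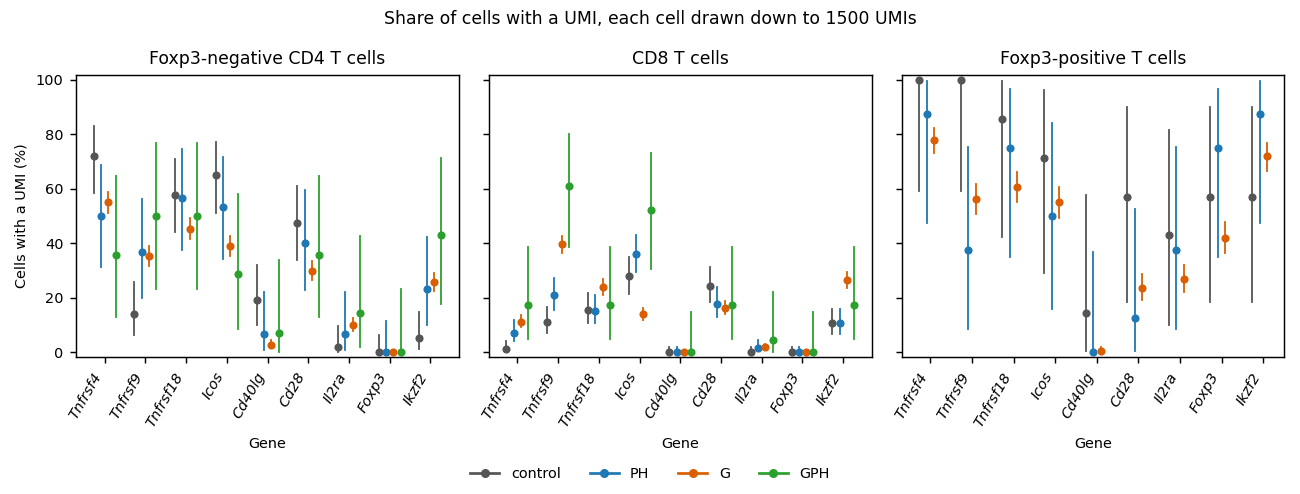
Share of cells with at least 1 UMI of each gene (vertical axis, percent) after each cell was drawn down to 1500 UMIs, in the 3 T cell populations (panels) and 4 libraries (colours); lines are exact Clopper-Pearson 95% intervals. In CD8 cells Tnfrsf9 goes from 11.1% in control to 20.8% in PH and 39.6% in G, while Icos is seen in 27.8%, 36.0% and 13.9%.

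At matched depth the shares of positive CD8 cells in control, PH and G ran in the order of the levels for Tnfrsf4, Tnfrsf9, Ikzf2 and Icos. For Cd28 they were 24.4%, 17.8% and 16.3%, with PH above G where its level was below, and for Tnfrsf18 15.6%, 15.2% and 23.8%. Tnfrsf4 was seen in 1.11% of control, 7.11% of PH and 11.2% of G cells. Tnfrsf9 was seen in 11.1%, 20.8% and 39.6%, and Ikzf2 in 10.6%, 10.7% and 26.4%. Il2ra was seen in 0% (0% to 2.03%), 1.52% (0.32% to 4.39%) and 1.73% (0.99% to 2.79%), intervals that overlap. Unthinned, Tnfrsf9 was seen in 22.0%, 41.4% and 69.4%. Icos was seen in 27.8%, 36.0% and 13.9% at matched depth. In cells with neither Cd3 nor Ptprc, deeper before thinning at medians of 10284, 7906 and 6843 UMIs, the thinned shares of Tnfrsf9 were 0.76%, 0.36% and 1.15%. In Foxp3-negative CD4 cells, Cd40lg was seen in 19.3% of control, 6.67% of PH and 2.75% of G cells at matched depth. Tnfrsf4 was seen in 71.9% (58.5% to 83.0%) of control and 55.1% (51.3% to 58.8%) of G cells there, although its pooled levels were alike.

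Within G the receptors differed between cells with and without a UMI of Mki67 or Top2a. In Foxp3-positive cells Tnfrsf9 stood at 445 CPM in the 159 cycling cells and 728 in the 160 others. Tnfrsf4 stood at 947 and 1349, Tnfrsf18 at 511 and 699, Icos at 454 and 649, and Ikzf2 at 869 and 1158. Il2ra (248 and 241) and Cd28 (173 and 191) had ratios whose intervals held 1. The cycling cells were deeper, with a median of 8755 UMIs against 3351. In CD8 cells the cycling cells had more Tnfrsf4 (125 against 95.7) and more Il2ra (22.5 against 14.6) than the others, and less Icos (85.3 against 120), Tnfrsf18 (142 against 180) and Ikzf2 (232 against 286).

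Other genes of the pathway were read from whole lists under the same rule. The shares over all genes to read these counts against are 7.87% higher and 12.5% lower in CD8 cells of G, 3.98% and 7.54% in its Foxp3-negative CD4 cells, and 8.54% and 6.91% in CD8 cells of PH. For Foxp3-positive against Foxp3-negative cells of G they are 8.5% and 13%. Among 14 genes of TRAF and NF-kappaB signalling measured in CD8 cells, G against control gave 3 higher (Rel, Traf3 and Traf5) and 2 lower. Rel, an NF-kappaB subunit, was 2.80-fold higher (2.22 to 3.57), while Nfkbia, the NF-kappaB inhibitor, was 4.51-fold lower and Tnfaip3 1.62-fold lower. In CD8 cells of PH, 2 of 12 were higher and none lower, and Rel was 2.26-fold higher (1.73 to 2.97). In Foxp3-negative CD4 cells of G, 1 of 14 was higher and 1 lower (Nfkbia, 2.52-fold). The 2 of 14 lower in CD8 cells of G and the 1 of 14 lower in its CD4 cells are near the shares over all genes.

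Of 9 interleukin 2 receptor chains and STAT5 targets, Il2rb, the signalling beta chain, was 2.09-fold higher (1.83 to 2.41) in CD8 cells of G, one of 2 higher there with 1 lower. Of the T cell receptor early response list, 6 of 12 were lower and 2 higher in CD8 cells of G. Egr1 was 3.29-fold and Cd69 4.65-fold lower, and Nr4a2 (1.76-fold) and Nr4a3 (2.13-fold) were higher. In Foxp3-negative CD4 cells of G 6 of 11 were lower and 2 higher, with Egr1 5.79-fold lower and Nr4a2 3.23-fold higher. Among 11 other costimulatory receptors, 4 of 8 measured were lower in CD8 cells of G and none higher, with Cd2 1.94-fold lower. In Foxp3-negative CD4 cells 2 of 8 were lower, Slamf1 3.99-fold and Cd2 1.83-fold. Of 6 inhibitory receptors, Pdcd1 was 1.95-fold higher and Lag3 2.04-fold lower in CD8 cells of G.

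In Foxp3-positive against Foxp3-negative CD4 cells of G, 11 of 22 measured genes of a regulatory T cell programme were higher and 3 lower. Klrg1 was 7.71-fold higher (5.61 to 10.8), Lrrc32, which presents latent TGF-beta, 6.43-fold (4.58 to 9.20), Ikzf4 3.77-fold (2.89 to 4.96) and the inhibitory receptor Ctla4 2.56-fold (2.37 to 2.76). Nrp1 was 3.21-fold lower. Of 8 measured helper cytokines and factors 6 were lower and 1 higher, with Ifng 11.5-fold and its regulator Tbx21 3.56-fold lower. Of 8 proliferation genes 7 were higher, with Mki67 at 236 against 103 CPM. Of 6 inhibitory receptors 4 were lower and Ctla4 was higher. Bcl2, a survival gene downstream of interleukin 2, was 5.69-fold lower. In the same comparison macrophage markers summed to 399 CPM in Foxp3-positive and 3269 in Foxp3-negative cells.

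The ligands of these receptors were read in C1q macrophages, cells with no Cd3 UMI and at least 3 UMIs of C1qa, C1qb and C1qc, of which there were 124, 326, 1132 and 23. Tnfsf9, the ligand of Tnfrsf9, stood at 20.2, 190, 7.53 and 40.9 CPM in the 4 libraries, and PH lay above the other 3. Cd86 and Cd80, the ligands of Cd28, stood at 45.5, 39.2, 139 and 90.0 and at 11.4, 7.42, 45.7 and 94.0. Both were higher in G than in control and PH. Cd40, the receptor for Cd40lg, stood at 23.4, 29.4, 60.3 and 20.4. Icosl stood at 1.27, 1.85, 7.53 and 8.18. Tnfsf4 (0, 1, 12 and 0 UMIs) and Tnfsf18 (0, 0, 2 and 0 UMIs) were near 0. Tnfsf4, the ligand of Tnfrsf4, was also read in T cells, where Foxp3-negative CD4 cells held 16.5, 0, 37.8 and 123 CPM. In G its UMIs numbered 140 in Foxp3-negative CD4 cells, 136 in CD8 cells and 1 in Foxp3-positive cells. Il2, the cytokine bound by Il2ra, had 25 UMIs in Foxp3-negative CD4 cells of G, 2 in its CD8 cells and 1 in its Foxp3-positive cells.

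Outside T cells, Ikzf2 and Tnfrsf9 were read in cells with neither Cd3 nor Ptprc, split at 3 UMIs of the keratin Krt19. Ikzf2 stood at 17.1 CPM in the Krt19-low and 7.60 in the Krt19-high cells of GPH, against 3.65 and 2.14 in control. Tnfrsf9 stood at 9.42, 2.82, 1.22 and 0.37 in the Krt19-high cells of the 4 libraries, and at 2.91, 2.30, 8.76 and 3.69 in Krt19-low cells. In the Krt19-high cells Icos was at 0, 0.05, 0.26 and 0.07. In the Krt19-low cells Icos was at 0.16, 0.28, 3.37 and 0.47, highest in G, where Tnfrsf9 was highest as well. The part of T cell RNA in these values was not tested.

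Over the 6 population sums of at least 50 cells, and 7778 genes, the genes with the pattern most like Tnfrsf4 by Pearson r of log2(CPM + 10) were Cacna1s (0.99), Dusp4 (0.99) and Syngr2 (0.99). For Icos they were Runx2 (0.99), Maf (0.98) and Nfkbid (0.98), and for Il2ra the first was Glipr1 (0.99). The 6 sums come from 3 libraries and share their depth and handling, so these values only describe which genes ran alike.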

How the data were processed

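Single-cell RNA was measured in 4 libraries of mouse pancreatic tumour, 1 for each group. The authors deposited unnormalized UMI counts for every gene and cell barcode. The submitters' processing notes list Cell Ranger 6.1 and mm10. The version in the file headers is 7.0.1. How barcodes were called is not given in the sources used here.

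Cells with at least 500 UMIs, at least 300 genes and at most 20% mitochondrial UMIs were taken. Scrublet (scanpy 1.11.5) scores were used to remove the highest at 0.8% per 1000 barcodes, since its automatic threshold called 0, 1, 0 and 7 cells. It took out 12.4%, 21.0%, 17.3% and 1.92% of the T cell gates of control, PH, G and GPH. Counts were summed per library and population and scaled to 1000000 UMIs of that population (CPM). Ratios have exact conditional binomial 95% intervals, levels exact Poisson and shares Clopper-Pearson intervals (scipy 1.17.1), all of which cover counting error only. A gene was called at 1.5-fold with an interval excluding 1, among genes with at least 20 UMIs over both sides. The calculation was checked on simulated data. GPH levels were set beside the others only by intervals of counting error, from 15 Foxp3-negative CD4 and 29 CD8 cells. Contrasts as ratios with GPH asked for at least 50 cells in both libraries, and none was made. The other contrasts had no such minimum, so those on Foxp3-positive cells rest on 8 cells in control and 9 in PH, and those on Foxp3-negative CD4 cells of PH on 34. Python 3.11.15, numpy 2.4.6, pandas 2.3.3 and matplotlib 3.10.9 were used.

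The members, gates and gene lists were chosen with earlier results of these data known, among them a lower Cd40lg in T cells of PH and G. All 9 members were described in every population. From each gene list up to 4 genes were named, those with the interval bound of the log2 ratio farthest from 0. Nrp1 in Foxp3-positive cells of G, and Traf5, Nr4a2 and Nr4a3 in its CD8 cells, fall outside that rule and were chosen after their values were seen. The genes most like Ikzf2 are not reported here.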

Additional observations from a re-analysis of the deposited data

Results flagged for a closer look

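Tnfrsf4 and Tnfrsf9 ran in opposite directions in different T cell populations under the same contrast, and whether the populations differ was not tested. For Tnfrsf4 the ratio of PH to control was 3.13 in CD8 cells and 0.32 in Foxp3-positive cells, and that of G to control was 4.81 and 0.498. For Tnfrsf9 the ratio of PH to control was 2.15 in CD8 cells and 0.20 in Foxp3-positive cells. The ratio of G to control for Tnfrsf9 was 2.30 in Foxp3-negative CD4 cells, 4.12 in CD8 cells and 0.484 in Foxp3-positive cells. The Foxp3-positive side of control is 8 cells and that of PH is 9 cells.

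In cells with neither Cd3 nor Ptprc UMIs, which the comparisons of T cells do not use, 6 of the 9 genes had a 95% counting interval in G that lay wholly above that of control. Tnfrsf4 stood at 1.07 CPM there, Tnfrsf18 at 2.02, Icos at 1.41, Cd28 at 0.93, Il2ra at 0.644 and Ikzf2 at 4.70. T cells were 32.2% of kept cells in G and 5.35% in control, and whether free T cell RNA has a part in these values was not tested. The cells with neither Cd3 nor Ptprc UMIs also held macrophage markers at 850 CPM in G and 61.3 in control. Neutrophil markers summed to 694 and 23.8 in them, and T cell markers to 10.0 and 3.15. The part of immune cells whose Ptprc was not captured was not tested. Ikzf2 also stood at 9.40 CPM in those cells of GPH, against 3.24 in control. Cells passing the T cell gate were 3.47% of kept cells in GPH, and 71.2% of these fell outside the 3 populations.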

How the results depend on the processing

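Of 62 member ratios followed under 13 alternatives, 696 of 795 values lay within the interval first reported, 94 lay outside it and 5 called ratios crossed to the other side of 1. Of 37 calls, 53 of 474 alternative values ended the call. No paired analysis was possible because each group is 1 library.

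With no doublet removal the count of called genes was 4 for PH against control in Foxp3-negative CD4 cells and 6 for Foxp3-positive against Foxp3-negative cells of PH, where the ratio of Cd28 was 1.14. With no minimum Cd3 concentration, 5 genes were called in CD8 cells of PH and the ratio of Cd28 in CD8 cells of G to control was 1.19. Without cells holding other-lineage UMIs, 2 genes were called in Foxp3-positive cells of PH against control, where the ratios of Tnfrsf18, Icos and Ikzf2 were 1.06, 1.04 and 1.11, and 4 in Foxp3-positive against Foxp3-negative cells of PH. Thinned to 1500 UMIs, 1 gene was called in Foxp3-positive cells of PH against control, and the Foxp3-positive share of G was 26.3%. Without cycling cells, 0 genes were called in Foxp3-negative CD4 cells and 2 in Foxp3-positive cells of PH against control, 3 in Foxp3-positive against Foxp3-negative cells of control and 1 in those of PH, with shares of 4.55% in control and 24.1% in G. At 2 Foxp3 UMIs, 0 genes were called in Foxp3-positive cells of PH and 1 in those of G against control, 3 in Foxp3-positive against Foxp3-negative cells of control, with shares of 3.23% in control and 14.1% in G. Without shared barcodes, 1 gene was called in Foxp3-positive against Foxp3-negative cells of PH. Apart from fewer cells entering, the cause of these changes was not tested.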
